A study of Mus musculus with 10 samples.

Results

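The Bcl2 family decides whether a cell permeabilizes its outer mitochondrial membrane, and 10 of its genes were followed here in supporting cells of the murine utricle: the anti-apoptotic Bcl2, Bcl2l1 and Mcl1, the effectors Bax and Bak1, and the BH3-only genes Bbc3, Bcl2l11, Bid, Bad and Bmf. The genes were chosen by name, and each symbol matched 1 gene among the 48709 of the tables. Supporting cells that carried the Lfng-EGFP reporter were sorted by their fluorescence from cultured utricles of mice at postnatal day 21. Their RNA was sequenced in 10 libraries. By the sample labels, 3 libraries came from cultures kept 5 d in 0.1% DMSO (DMSO_d5), and 3 from cultures kept 5 d in 10 µM TRULI, an inhibitor of the kinases Lats1 and Lats2, with 0.1% DMSO (TRULI_d5). For 2 libraries the 5 d in DMSO were followed by 5 d without treatment (DMSO_d10), and for 2 the 5 d in TRULI were followed by the same 5 d of withdrawal (TRULI_d10). All libraries share the reporter strain, the age and the organ culture, and all cultures received DMSO. The reporter marks supporting cells by their Lfng expression, and the sort gated on it. The labels do not say which animals or cultures gave which library, so p-values measure only the spread between these libraries.

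Proteins of this family act at the outer mitochondrial membrane. Bcl2, Bcl-xL (from Bcl2l1) and Mcl1 hold the effectors Bax and Bak in check, and the BH3-only proteins are sensors of stress that block the guardians or engage the effectors. Once Bax or Bak form pores, cytochrome c leaves the mitochondrion, Apaf1 assembles the apoptosome and caspases are activated. The study considered that a forced return to the cell cycle can end in programmed cell death. It reported that genes tied to cell death were unchanged under TRULI and that some inflammatory and pro-apoptotic genes were repressed. After withdrawal it saw no enrichment of pro-apoptotic genes. The choice of the family genes followed here is not the study's. Hair cells of the inner ear are known to die by this mitochondrial route after ototoxic injury, whereas supporting cells are more resistant.

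Some facts of the libraries bear on every comparison. The tables sum to between 2463872 and 6255149 counts, so 3 counts correspond to 0.48 to 1.22 CPM (counts per 1000000, scaled by TMM factors where given for a gene). For 4 libraries the sample label and the name under which the table was deposited give different conditions: the libraries labelled TRULI_d5 replicates 1 and 2 were deposited as DMSO_d10 replicates 1 and 2, and those labelled DMSO_d10 replicates 1 and 2 as TRULI_d5 replicates 2 and 3. The mitochondrial ribosomal RNA mt-Rnr2 made up 1.45% to 2.53% of counts in the libraries labelled TRULI_d5 replicates 1 and 2 and TRULI_d10, and 13.02% to 26.4% in the other 6. The summed level of 5 genes that answer to Yap was 1328, 1097 and 1264 CPM in the libraries deposited as TRULI_d5, 299 to 449 in DMSO_d5 and 59.0 to 225 in the other 4. Groups by sample label are the main comparison, each result is also given for groups by deposited name, and libraries are named here by their labels. Of the Yap genes 3 of 4 tested were called higher (adjusted p under 0.05, edgeR) at 5 d by deposited name and 0 of 4 by label. After withdrawal 0 of 4 were called by deposited name, and 3 of 5 were called lower by label. The paper reports that Yap targets rose under TRULI and matched controls after its withdrawal. Only the groups by deposited name show that order, so results by label alone should not be read as the effect of TRULI. Of the 8 supporting cell markers, 7 or 8 were above 3 counts in each library, with Otog at 2145 CPM or more. Of 6 leukocyte markers C1qa was at 0 in all libraries, and Ptprc, Csf1r and Aif1 reached 0.798 CPM at most and Lyz2 5.97. Cd68 was at 0 in none, at 0.907 to 18.6 CPM, and the 6 summed to 0.99 to 2.57 CPM in DMSO_d5, 5.74 to 10.3 in the libraries labelled TRULI_d5 and DMSO_d10, and 0.91 and 18.6 in TRULI_d10. At 5 d the log2 fold change of Cd68 was 2.17 (adjusted p = 0.323, edgeR) by label and 2.24 (adjusted p = 0.052) by deposited name, and its part in the results was not tested. The 4 endothelial markers summed to 3.08 CPM or less, with Emcn at 0 in all libraries. The 5 mesenchymal markers summed to 11.7 to 34.65 CPM, with Pdgfra at 0 in none and at 9.4 to 28.4 CPM. Col1a1, Col3a1, Dcn and Lum reached 8.16 CPM at most. In bulk RNA fewer cells of a type and less RNA per cell cannot be told apart.

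Mcl1 had the highest median level of the members, and the summed anti-apoptotic members exceeded the summed pro-apoptotic members in every library. Compared per length of transcript, as FPKM (expected counts scaled by effective length and by the library's protein-coding total), the median over the 10 libraries was 79.1 for Mcl1, followed by 30.5 for Bcl2l1, 26.4 for Bax, 15.1 for Bcl2l11 and 7.82 for Bcl2. The medians of Bad, Bak1 and Bid were 5.81, 5.09 and 3.58, and Bbc3 and Bmf came last at 0.587 and 0.538. Only Mcl1 stood clear of most others: its lowest library, at 61.6, exceeded the highest library of every other member except Bcl2l1, which reached 84.8. In the library labelled DMSO_d10 replicate 2 Bcl2l1 was above Mcl1, at 75.5 against 70.8. The ranges of neighbours further down the order overlapped. The summed FPKM of Bcl2, Bcl2l1 and Mcl1 lay between 81.8 and 201.8, and that of the 7 pro-apoptotic members between 39.9 and 83.1. Their ratio ran from 1.36 to 4.38. It was 2.53, 2.81 and 2.69 in DMSO_d5, 1.65, 1.42 and 4.38 in the libraries labelled TRULI_d5, 3.46 and 1.96 in those labelled DMSO_d10, and 1.99 and 1.36 in TRULI_d10. By label the TRULI_d5 libraries therefore lay on either side of their controls, and so they did by deposited name, at 4.38, 3.46 and 1.96. Relatives outside the members were not counted in these sums. Among them Bcl2l2 was at 10.04 to 29.25 FPKM, Bik at 7.985 to 27.5, Bnip3l at 166 to 503 and Bnip3 at 294 to 1276.

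**Figure D1:**
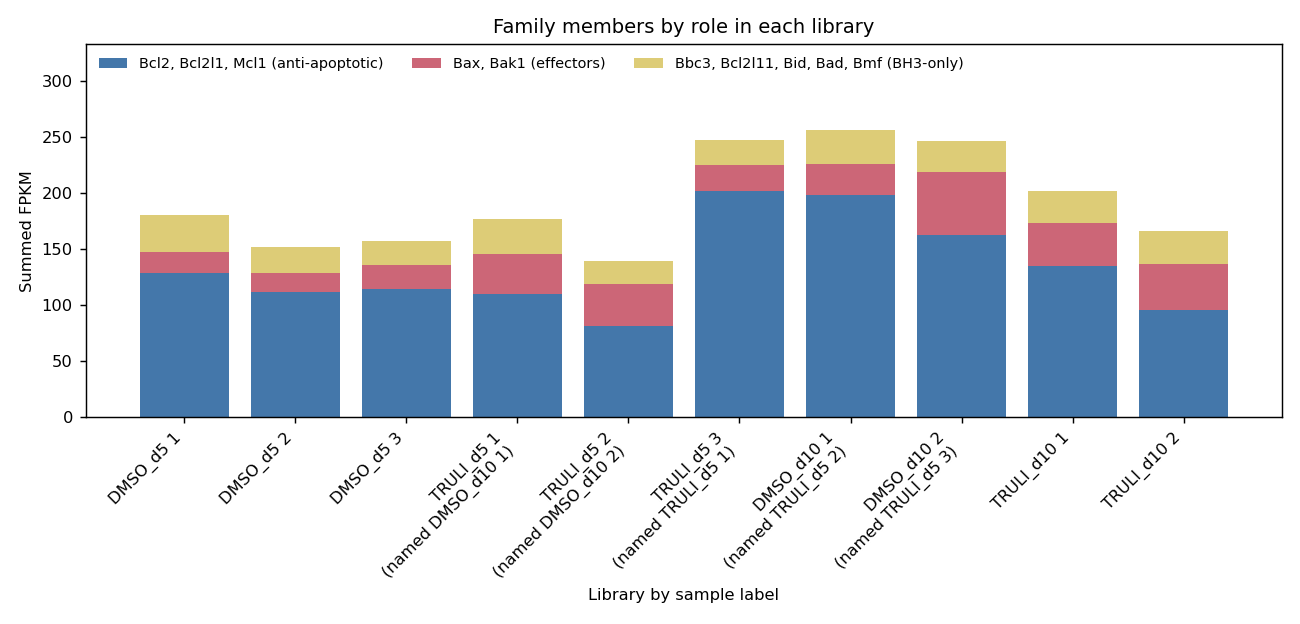
Summed FPKM of the family members by role in each of the 10 libraries, named by sample label with the deposited name below where the 2 differ. The blue anti-apoptotic part is the larger in every bar, and it is tallest, at 201.8, 198.9 and 163.1 FPKM, in the libraries labelled TRULI_d5 replicate 3 and DMSO_d10 replicates 1 and 2.

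In the comparison of TRULI with DMSO after 5 d by sample label, no member passed the test. Over all genes, 1 of 11071 was called, 0.00903%, in edgeR's quasi-likelihood test at a Benjamini-Hochberg adjusted p under 0.05, and 1515 had an unadjusted p under that limit. Of the 10 members 8 had enough counts to be tested, of which 0 were called and 2, Bax and Bak1, had an unadjusted p under 0.05, and DESeq2 also called 0 members. Their median log2 fold change was 0.42, beside 0.05 over all genes tested. By deposited name 378 of 11529 genes were called, 3.28%, with 244 higher and 134 lower in TRULI. One member of the 9 tested, Bcl2l1, was among them, with 6 at an unadjusted p under 0.05. The median of the 9 was 0.16 and that of all genes 0.03.

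After withdrawal, 253 of 12242 genes were called by sample label, 2.07%, with 123 higher and 130 lower in TRULI, and 0 of 9 members tested in edgeR, with 3 at an unadjusted p under 0.05. DESeq2 called 1 member, Bcl2l11 (adjusted p = 0.0106), and 1468 genes. Every library labelled TRULI_d10 had the low share of mt-Rnr2 and every library labelled DMSO_d10 the high share, so treatment and that split cannot be told apart in these groups. By deposited name both groups had the low share, and edgeR called 0 of 11568 genes, or 0%, with 532 at an unadjusted p under 0.05, while DESeq2 called 49. Of 8 members tested 0 were called by either tool and 0 had an unadjusted p under 0.05. The difference between the effect after withdrawal and the effect at 5 d was also tested across all 10 libraries, as an interaction, and 0 of 12841 genes and 0 of 9 members passed in either grouping. The lowest unadjusted p of a member was 0.0384 by label, for Bcl2l1 (adjusted p = 0.714), and 0.0565 by deposited name, for the same gene (adjusted p = 0.542).

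**Figure D2:**
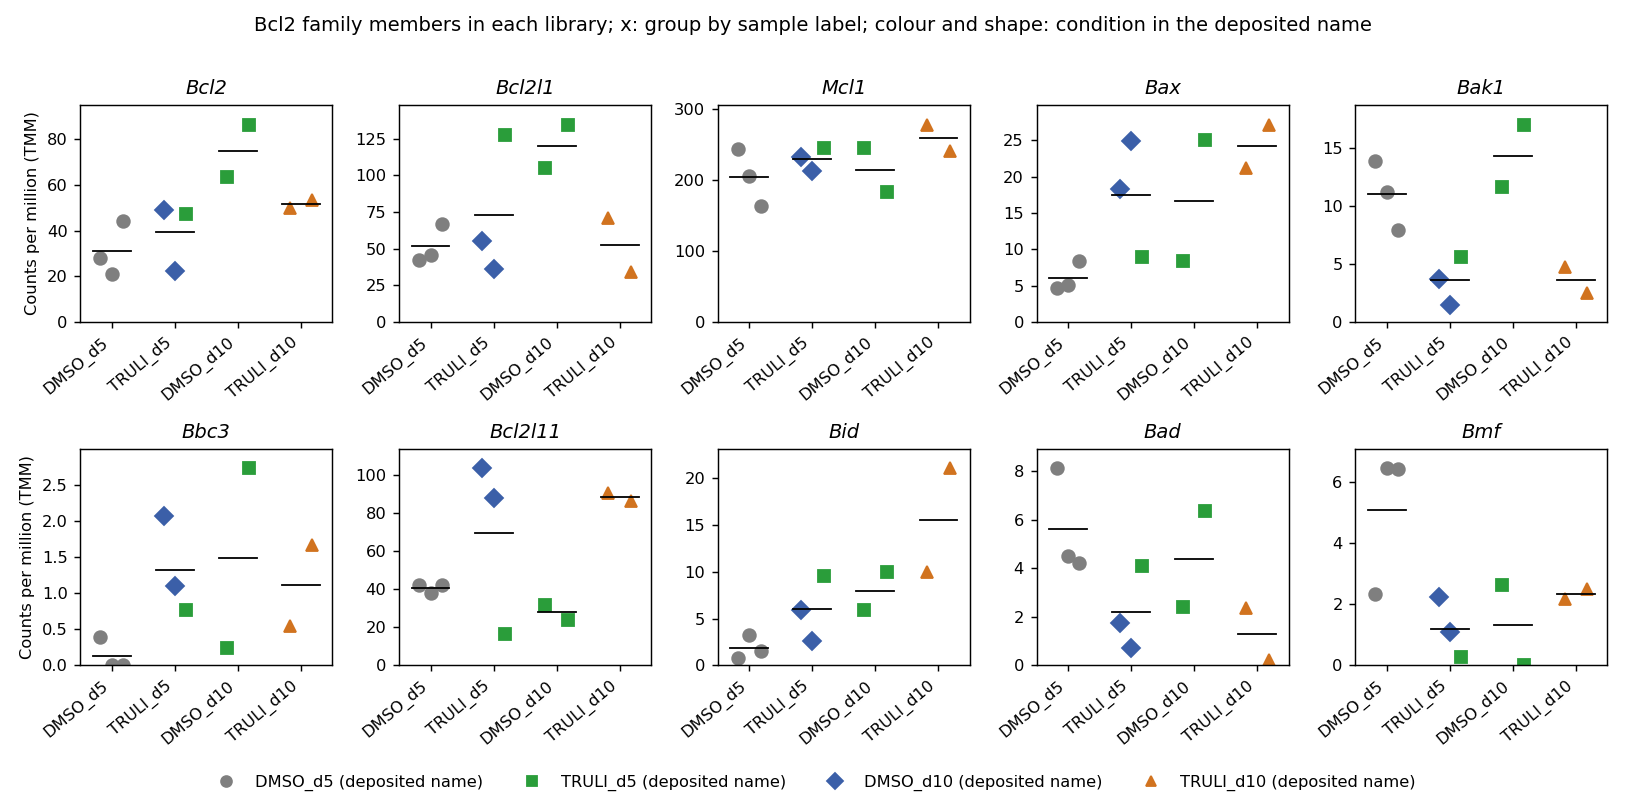
CPM of each member in the 10 libraries, placed on the x axis by sample label and coloured and shaped by the condition in the deposited name, with the mean of each labelled group as a bar. Bcl2l1 is highest, at 105 to 135 CPM, in the 3 libraries deposited as TRULI_d5, and Bcl2l11, at 86.3 to 104, in the 4 deposited as day 10.

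Mcl1, a short-lived guardian that many cells need, varied least of the members in proportion to its level. Its level was 243, 205 and 163 CPM in DMSO_d5, 232, 213 and 245 in the libraries labelled TRULI_d5, 245 and 183 in those labelled DMSO_d10, and 278 and 242 in TRULI_d10. The groups overlapped at 5 d and after withdrawal by label. Its log2 fold change (TRULI over DMSO) at 5 d was 0.16 (SE 0.32, adjusted p = 0.832, edgeR, n = 3 and 3) by label and 0.16 (SE 0.24, adjusted p = 0.807) by deposited name. After withdrawal it was 0.21 (SE 0.34, adjusted p = 0.734, edgeR, n = 2 and 2) by label and 0.22 (SE 0.36) by deposited name. From its lowest library to its highest it spanned 0.765 on the log2 CPM scale.

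Bcl2l1, which encodes the guardian Bcl-xL, was called higher in the libraries deposited as TRULI_d5, alone among the members in edgeR without a block and together with Bcl2 and Bid in the fits with the replicate block, without the filter on low counts and with DESeq2. It stood at 42.1, 45.7 and 66.7 CPM in DMSO_d5, 55.2, 35.9 and 127.5 in the libraries labelled TRULI_d5, 105 and 135 in those labelled DMSO_d10, and 71.1 and 34.0 in TRULI_d10. The 3 highest libraries were the ones deposited as TRULI_d5, which did not overlap with DMSO_d5, whereas the labelled groups at 5 d overlapped. By label the log2 fold change at 5 d was 0.50 (SE 0.49, adjusted p = 0.639, edgeR). By deposited name the mean was 122 ± 15.3 CPM (SD, n = 3) in TRULI_d5 and 51.5 ± 13.3 (SD, n = 3) in DMSO_d5, a rise of 2.40-fold (log2 fold change 1.26, SE 0.23, adjusted p = 0.0167, edgeR). Without the library DMSO_d5 replicate 1 the adjusted p was 0.0655, without DMSO_d5 replicate 2 it was 0.113, and with all 10 libraries in a single fit 0.102, and over the 13 alternatives it ran from 0.000132 to 0.113, with the log2 fold change between 1.14 and 1.47. After withdrawal the log2 fold change was −1.25 (SE 0.45, adjusted p = 0.145, edgeR) by label, where the groups did not overlap, and 0.20 (SE 0.57, adjusted p = 1) by deposited name. By label, without TRULI_d10 replicate 1 it was −1.89 (adjusted p = 0.00129).

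The promoter of Bcl2l1 is shown because this gene was called, and because its upstream bases hold GGAATG, the core of the site bound by TEAD proteins, the DNA-binding partners of Yap. The 250 bases before the RefSeq start lie on the minus strand of chr2:152831729-152831978 (GRCm38.p6) and are written 5′ to 3′ with the motif in capitals. The first base of the motif is 108 bases before the start.
Bcl2l1: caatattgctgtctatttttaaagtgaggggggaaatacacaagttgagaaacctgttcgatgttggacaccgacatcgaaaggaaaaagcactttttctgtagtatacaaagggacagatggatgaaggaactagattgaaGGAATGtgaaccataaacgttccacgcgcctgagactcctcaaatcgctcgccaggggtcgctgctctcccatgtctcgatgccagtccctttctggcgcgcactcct
Both strands were searched (GGAATG or CATTCC) in the 250 bases before each of 32851 RefSeq starts, of which 12.6% held a match. Of the 18 starts of the 10 members 2 did, 1 of Bcl2l1 and that of Mcl1, which was called in no comparison, and the other 2 starts of Bcl2l1 did not. A match is a run of letters and not evidence of binding. The motif was chosen with the results known.

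Bcl2, the founding member of the family, stood at 27.8, 20.9 and 44.2 CPM in DMSO_d5, 49.0, 22.4 and 47.3 in the libraries labelled TRULI_d5, 63.5 and 86.3 in those labelled DMSO_d10, and 49.9 and 53.6 in TRULI_d10. The 2 highest libraries were those labelled DMSO_d10 and deposited as TRULI_d5. At 5 d the log2 fold change was 0.34 (SE 0.45, adjusted p = 0.728, edgeR) by label, with overlapping groups. By deposited name it was 1.09 (SE 0.32, adjusted p = 0.104, edgeR), with 3 of 3 TRULI_d5 libraries above all DMSO_d5 libraries, the gap being 44.2 to 47.3 CPM. After withdrawal it was −0.59 (SE 0.38, adjusted p = 0.372) by label and 0.53 (SE 0.57, adjusted p = 1) by deposited name. The sign after withdrawal turned with the choice of control libraries.

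The deposited names number the libraries within each condition, and at 5 d libraries with the same number deviated together from their group means. Their correlations across genes were 0.381, 0.192 and 0.315. Deviations were taken from each group's own mean, so these correlations are not independent and do not establish a pairing. With the replicate number as a block, 3 of 9 members were called in that grouping and 1140 genes in all. Bcl2l1 had a log2 fold change of 1.28 (adjusted p = 0.0016, edgeR with the replicate block), Bcl2 of 1.12 (adjusted p = 0.00958) and Bid of 2.25 (adjusted p = 0.0365). DESeq2 without the block called the same 3 members, with adjusted p of 0.0334 for Bcl2 and 0.0225 for Bid.

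**Figure D3:**
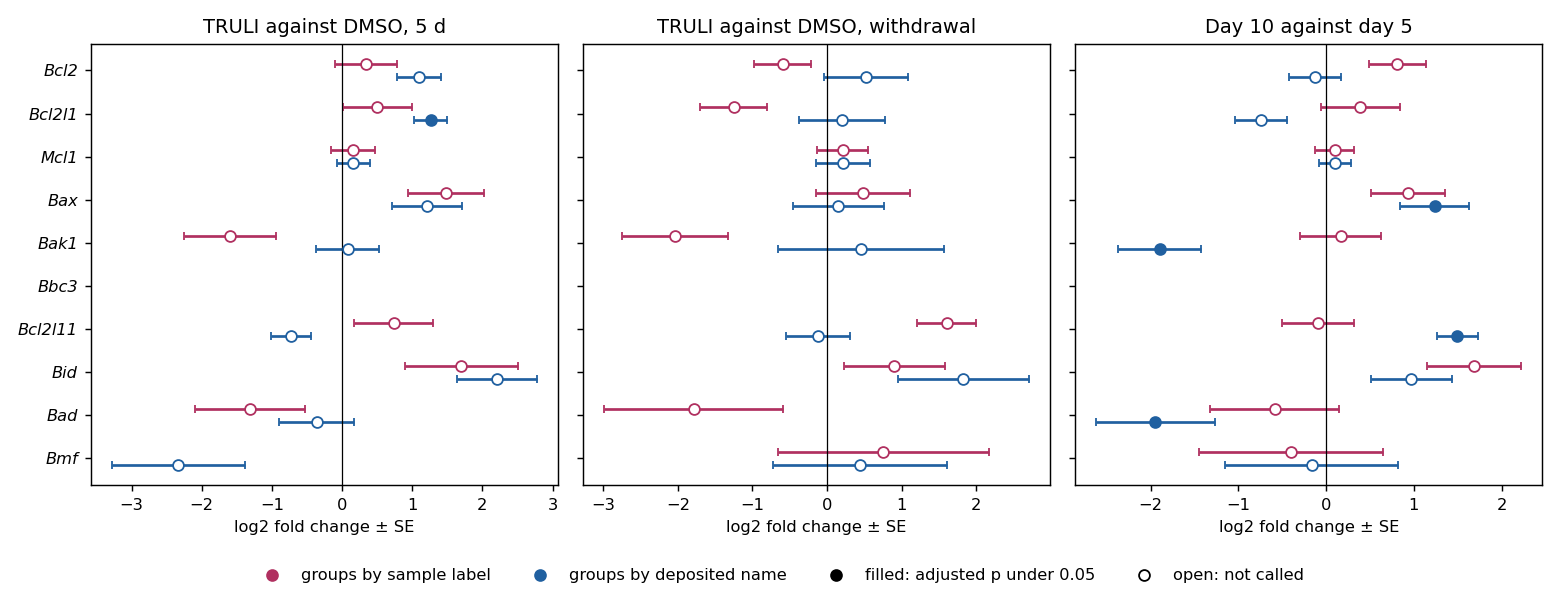
Fitted log2 fold change with its standard error (bars) of each member, for TRULI over DMSO at 5 d, TRULI over DMSO after withdrawal and day 10 over day 5, with groups by sample label in red and by deposited name in blue, filled where the adjusted p was under 0.05. Bcl2l1 is filled at 5 d by deposited name, and Bax, Bak1, Bcl2l11 and Bad are filled in the day comparison by deposited name. Bbc3 was not tested, nor was Bmf at 5 d by label or Bad after withdrawal by name.

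Of the effectors, Bax was mostly higher and Bak1 lower in the libraries with little mt-Rnr2 than in those with much. The ranges of Bax overlapped, at 18.4 to 27.1 CPM with little mt-Rnr2 and 4.64 to 25.0 with much, whereas those of Bak1 did not. Bax, which moves from the cytosol to the mitochondrion when activated, stood at 4.64, 5.14 and 8.40 CPM in DMSO_d5, 18.4, 24.9 and 8.995 in the libraries labelled TRULI_d5, 8.35 and 25.0 in those labelled DMSO_d10, and 21.2 and 27.1 in TRULI_d10. By label all 3 TRULI_d5 libraries lay above all 3 DMSO_d5 libraries, with 8.995 against 8.40 CPM at the nearest. The log2 fold change at 5 d was 1.48 (SE 0.54, adjusted p = 0.338, edgeR) by label and 1.21 (SE 0.50, adjusted p = 0.258) by deposited name. By label it was called when TRULI_d5 replicate 3 was left out, at 1.75 (adjusted p = 0.0365), which leaves in the TRULI group the 2 libraries with the low mt-Rnr2 share. After withdrawal it was 0.48 (SE 0.63, adjusted p = 0.669) by label and 0.15 (SE 0.61, adjusted p = 1) by deposited name. Bax had 12 to 130 counts a library.

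Bak1, the effector that sits in the mitochondrial membrane from the start, had 13.9, 11.2 and 7.91 CPM in DMSO_d5, 3.67, 1.47 and 5.65 in the libraries labelled TRULI_d5, 11.7 and 17.0 in those labelled DMSO_d10, and 4.72 and 2.50 in TRULI_d10. By label each TRULI library was below each control, at 5 d and after withdrawal. The log2 fold change was −1.60 at 5 d (SE 0.65, adjusted p = 0.353, edgeR) and −2.04 after withdrawal (SE 0.71, adjusted p = 0.137) by label. By deposited name the values were 0.08 (SE 0.45, adjusted p = 0.952) and 0.46 (SE 1.11, adjusted p = 1), and the groups overlapped. When a library was left out, the value after withdrawal by label ran from −2.58, without TRULI_d10 replicate 1, to −1.69. Per length, the ratio of Bax to Bak1 was 0.887 to 2.75 in DMSO_d5 and 15.01 to 47.2 in the 4 libraries with the low mt-Rnr2 share, whatever their label. Bak1 had 23 and 4 counts in the 2 of these labelled TRULI_d5 and 26 and 12 in TRULI_d10. The ratio of 47.2 rests on the library with 4 counts. In the 3 libraries deposited as TRULI_d5 it was 4.29, 2.01 and 3.82.

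Among the BH3-only members followed here, Bcl2l11 had the highest median FPKM. It encodes Bim, which binds all guardians and is a target of FoxO transcription factors. It stood at 42.1, 37.9 and 42.0 CPM in DMSO_d5, 103.6, 88.0 and 16.7 in the libraries labelled TRULI_d5, 31.7 and 23.9 in those labelled DMSO_d10, and 90.5 and 86.3 in TRULI_d10. On the CPM scale the libraries fell into 2 sets without overlap: 86.3 to 104 CPM in the 4 with little mt-Rnr2 and 16.7 to 42.1 CPM in the other 6. Of the 12841 genes tested over all libraries 13.4% were likewise higher in those 4, without overlap. In FPKM the gap all but closed, at 17.2 or more in the 4 and up to 17.03 in the library labelled DMSO_d10 replicate 1. The effective length of the gene in that library was 2707 bases, against 3483 to 4738 in the other 9. At 5 d by label the log2 fold change was 0.73 (SE 0.56, adjusted p = 0.549, edgeR), with 2 TRULI libraries above and 1 below all controls. By deposited name it was −0.73 (SE 0.28, adjusted p = 0.224, edgeR), with 3 of 3 TRULI libraries below all controls in CPM, at 24.1 ± 7.52 against 40.7 ± 2.38 (SD, n = 3 each). In FPKM these groups overlapped, with the TRULI libraries at 6.65, 17.0 and 6.66 and the controls at 11.6 to 13.2. The direction at 5 d thus turned with the grouping, and neither value passed the test. When TRULI_d5 replicate 3 was left out the label value became 1.17 (adjusted p = 0.0258), and without the 2 libraries whose label and name differ, which leaves 1 TRULI library, it became −1.28 (SE 0.39, adjusted p = 0.172).

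After withdrawal Bcl2l11 was at 88.4 ± 2.96 CPM in TRULI_d10 and 27.8 ± 5.57 in the libraries labelled DMSO_d10 (SD, n = 2 each), a fitted ratio of 3.04 that did not pass (log2 fold change 1.61, SE 0.40, adjusted p = 0.0741, edgeR). It was called with DESeq2 (adjusted p = 0.0106), without the filter on low counts (adjusted p = 0.0138) and when either TRULI_d10 library was left out (adjusted p = 0.00409 and 0.0065), and over the 11 alternatives the adjusted p ran from 0.00409 to 0.46. By deposited name the controls were at 103.6 and 88.0 CPM, and the log2 fold change was −0.12 (SE 0.43, adjusted p = 1, edgeR). These groups overlapped.

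The promoter of Bcl2l11 is shown because its CPM split the libraries into 2 sets and because it holds GTAAACA, a core letter run of sites bound by FoxO proteins. The bases lie on the plus strand of chr2:128125788-128126037 (GRCm38.p6), 250 bases before the RefSeq start, 5′ to 3′, with the motif in capitals. It begins 227 bases before the start.
Bcl2l11: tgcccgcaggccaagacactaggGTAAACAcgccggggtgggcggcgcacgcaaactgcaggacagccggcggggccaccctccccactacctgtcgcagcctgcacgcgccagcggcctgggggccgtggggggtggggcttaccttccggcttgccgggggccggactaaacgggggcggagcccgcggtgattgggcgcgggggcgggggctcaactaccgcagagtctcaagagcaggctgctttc
On either strand (GTAAACA or TGTTTAC) the letters were in 3.17% of the 32851 windows of this length. Of the 18 windows of the members 2 held them, 1 of Bcl2l11 and 1 of Bbc3. The gene of the FoxO protein most often tied to Bim, Foxo3, was at 41.4 to 86.3 CPM in the 4 libraries where Bcl2l11 was high and at 105 to 180 in the other 6. Foxo1, a related gene, went the other way: in the day comparison by deposited name, which sets the same 4 libraries against the same 6, its log2 fold change was 1.05 (adjusted p = 0.0339, edgeR) and that of Foxo3 −1.27 (adjusted p = 0.00262). The level of Foxo1 was 24.9 to 126 CPM in the 4 and 25.7 to 54.1 in the other 6, overlapping ranges. This motif too was chosen with the results known.

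**Figure D4:**
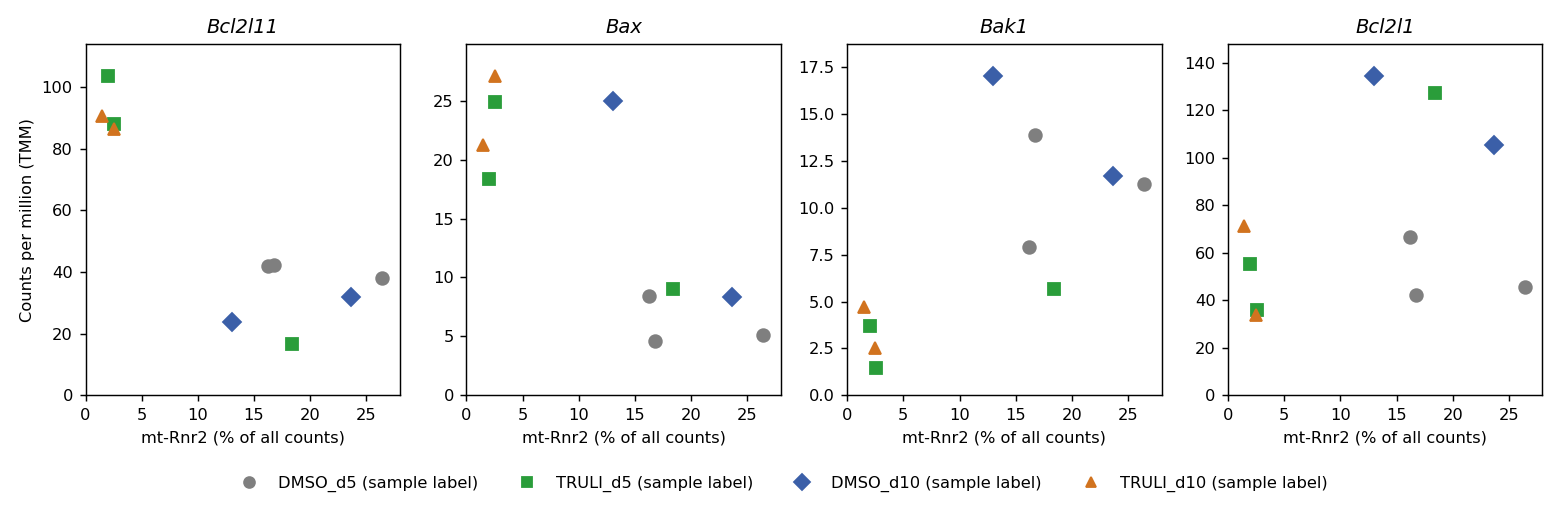
CPM of 4 members (y axes) against the share of mt-Rnr2 in all counts (x axes) in the 10 libraries, coloured and shaped by sample label. Bcl2l11 is at 86.3 CPM or more and Bak1 at 4.72 CPM or less in the 4 libraries with 2.53% mt-Rnr2 or less, Bax is low in 5 of the other 6, and Bcl2l1 does not follow the split.

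Bid, which death receptors activate through caspase 8, was low in DMSO_d5, where its libraries had only 2, 10 and 6 counts. It stood at 0.773, 3.21 and 1.48 CPM in DMSO_d5, 5.90, 2.57 and 9.51 in the libraries labelled TRULI_d5, 5.97 and 10.0 in those labelled DMSO_d10, and 9.98 and 21.1 in TRULI_d10. The DMSO_d5 libraries were 3 of the 4 lowest. The log2 fold change was positive in both comparisons and both groupings, and none passed: 1.70 at 5 d (SE 0.81, adjusted p = 0.38, edgeR) and 0.90 after withdrawal (SE 0.68, adjusted p = 0.444) by label, 2.20 (SE 0.57, adjusted p = 0.0662) and 1.83 (SE 0.88, adjusted p = 1) by deposited name. At 5 d by deposited name the groups did not overlap, and it was called in 3 of the 13 alternatives.

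Bad, a BH3-only protein held inactive by survival kinases, was near the limit of detection. Its libraries had 21, 14 and 17 counts in DMSO_d5, 11, 2 and 16 in those labelled TRULI_d5, 10 and 28 in those labelled DMSO_d10, and 13 and 1 in TRULI_d10. The log2 fold change by label was −1.32 at 5 d (SE 0.78, adjusted p = 0.457, edgeR) and −1.79 after withdrawal (SE 1.20, adjusted p = 0.391), and by deposited name it was −0.36 at 5 d (SE 0.53, adjusted p = 0.804). The labelled groups did not overlap, with 4.11 against 4.20 CPM at the nearest at 5 d and 2.36 against 2.39 after withdrawal, gaps smaller than the 0.48 to 1.22 CPM that 3 counts stand for.

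Bmf, released when the cytoskeleton is disturbed, had 6, 20 and 26 counts in DMSO_d5, 14, 3 and 1 in the libraries labelled TRULI_d5, 11 and 0 in those labelled DMSO_d10, and 12 and 12 in TRULI_d10. The highest level was 6.43 CPM. By deposited name its log2 fold change at 5 d was −2.34 (SE 0.95, adjusted p = 0.245, edgeR), and after withdrawal 0.44 (SE 1.17, adjusted p = 1), against 0.76 (SE 1.41, adjusted p = 0.776) by label. Bbc3, which encodes Puma, a target of p53, had 1, 0 and 0 counts in DMSO_d5, 13, 3 and 3 in the libraries labelled TRULI_d5, 1 and 12 in those labelled DMSO_d10, and 3 and 8 in TRULI_d10. In 7 of the 10 libraries it had at most 3 counts, and the filter on low counts kept it out of the test. Without the filter its log2 fold change at 5 d was 3.24 (SE 1.88, adjusted p = 0.498, edgeR) by label and 3.18 (SE 1.61, adjusted p = 0.338) by deposited name, and after withdrawal it was −0.44 (SE 1.72, adjusted p = 0.903) and −0.54 (SE 1.98, adjusted p = 1).

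Groups that did not overlap in CPM were common over all genes. By label at 5 d, 8.54% of the 11071 genes tested had every TRULI library above every control and 9.57% had every one below. Among the 8 members tested 1 was above (Bax) and 2 below (Bak1 and Bad), and of the untested members Bbc3 was above and Bmf below. After withdrawal by label the shares over all genes were 29.1% above and 28.6% below, beside 1 (Bcl2l11) and 4 (Bcl2, Bcl2l1, Bak1 and Bad) of 9 members tested. By deposited name they were 10.5% and 10.8% at 5 d, beside 3 above (Bcl2, Bcl2l1 and Bid) and 1 below (Bcl2l11) of 9. After withdrawal by deposited name they were 15.4% and 13.3%, beside 3 above (Bcl2, Mcl1 and Bid) and 0 below of 8. With so few members and libraries, these counts are given as a description. In FPKM the groups of Bcl2l11 at 5 d and Mcl1 after withdrawal, both by deposited name, and of Bad at 5 d by label overlapped, while those of Bax and Bbc3 at 5 d by deposited name did not.

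The comparison of day 10 with day 5, with treatment as a second term over all 10 libraries, was added after the data were seen. By label 0 of 12841 genes were called, or 0%, with 761 at an unadjusted p under 0.05, and DESeq2 called 6. None of 9 members was called, and 3 had an unadjusted p under 0.05. By deposited name 4359 genes were called, 33.9%, and 4 of 9 members: Bcl2l11 rose by 1.49 on the log2 scale (SE 0.23, adjusted p = 0.000559, edgeR) and Bax by 1.24 (SE 0.39, adjusted p = 0.0268), while Bak1 fell by 1.90 (SE 0.47, adjusted p = 0.00825) and Bad fell by 1.95 (SE 0.67, adjusted p = 0.0394). A share of 4 in 9 stands beside 33.9% of all genes. The groups did not overlap in CPM for Bcl2l11, higher, and for Bak1 and Bad, lower, where 13.4% of all genes tested were higher and 10.3% lower without overlap. In this grouping every day 10 library has the low mt-Rnr2 share and every day 5 library the high one, so day and that split cannot be told apart. Some marker genes of several cell types differed across the same split. Of the 8 supporting cell markers 4 were called lower in the day 10 libraries: Lfng, the gene of the sorting reporter, by −2.87 on the log2 scale (adjusted p = 0.000274, edgeR), Tecta by −1.78, Otogl by −1.56 and Sox2 by −0.98. Of 8 hair cell markers Gfi1 (−3.66) and Myo7a (−2.42) were called lower, while 3 had positive values that were not called. Summed, the hair cell markers did not follow the split. They were at 40.5 to 891 CPM in the libraries with the low mt-Rnr2 share and 123 to 652 in the others. Of the Schwann cell and neuron markers Mbp was called higher (1.14). Across the same 2 sets the 4 muscle markers summed to 15.1 to 92.3 CPM against 1.14 CPM or less, Myod1 being nearly all of it with Myh3 at 0 in 9 libraries, and their part in these differences was not tested. The calls of Bax and Bad were lost in 6 and 8 of the 10 fits that left out a library, whereas those of Bcl2l11 and Bak1 were kept in all 10, at adjusted p of at most 0.00189 and 0.0248.

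Other gene groups stood high in the libraries deposited as TRULI_d5. The 7 cell cycle genes summed to 149 to 496 CPM there, against 43.2 to 91.0 in DMSO_d5, and 5 of 7 were called higher by deposited name, with 0 of 2 tested by label. Hair cell markers summed to 173 to 652 CPM in those libraries and 123 to 194 in DMSO_d5, overlapping ranges, with 1 of 7 called. In TRULI_d10 they summed to 891 and 146. Their part in the values of the family members was not tested.

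The rest of the pathway was taken from 48 genes in 5 lists: 15 other Bcl2 relatives, 13 caspases and their regulators, 6 partners in the outer and inner mitochondrial membranes, 7 genes of the death receptor route and 7 transcription factors and regulators upstream. By label edgeR called 0 of 37 tested genes at 5 d, where 4 had an unadjusted p under 0.05 and the median log2 fold change was 0.04, and 0 of 41 after withdrawal, where 8 did and the median was −0.14. DESeq2 called 2 of the 37, Endog and Trp53, both higher, and 4 of the 41, with 2 higher and 2 lower (Atf4, Endog, Opa1 and Vdac1). By deposited name edgeR called 2 of 38 at 5 d, both higher in TRULI, with a median of 0.07, and DESeq2 those 2 and Pmaip1. After withdrawal both tools called 0 of 38, with 2 at an unadjusted p under 0.05 and a median of 0.01. The genes that DESeq2 alone called were named after their values were seen. In the day comparison by deposited name 16 of 40 were called, 8 higher and 8 lower, where 33.9% of all genes were.

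Apaf1, the scaffold of the apoptosome, stood at 5.02, 4.82 and 5.43 CPM in DMSO_d5, 4.15, 1.47 and 16.2 in the libraries labelled TRULI_d5, 20.8 and 20.2 in those labelled DMSO_d10, and 27.4 and 13.8 in TRULI_d10. In CPM it was high in the 5 libraries deposited with TRULI in their name and low in the 5 deposited as DMSO. In FPKM only DMSO_d5 stood apart, at 1.13 to 2.56: the libraries deposited as DMSO_d10 were at 5.38 and 4.82 and those with TRULI in their name at 3.62 to 4.94. The effective length of the gene was 808 and 280 bases in the 2 libraries deposited as DMSO_d10, which had 26 and 4 counts, and 2546 to 6204 in the other 8. By deposited name the rise at 5 d was 1.91 on the log2 scale (SE 0.35, adjusted p = 0.0152, edgeR), and by label the value was 0.53 (SE 0.84, adjusted p = 0.781). After withdrawal by deposited name the fit of counts, which takes no account of length, gave 2.81 (SE 0.89, adjusted p = 0.923). Leaving out single libraries took the adjusted p at 5 d by deposited name up to 0.0873.

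Trp53, which encodes p53, an activator of Bbc3 and Bax, stood at 11.2, 13.5 and 15.1 CPM in DMSO_d5, 35.6, 44.0 and 30.6 in the libraries labelled TRULI_d5, 24.3 and 46.8 in those labelled DMSO_d10, and 58.6 and 33.0 in TRULI_d10. The 3 DMSO_d5 libraries were the lowest of the 10 under either set of names. At 5 d the log2 fold change was 1.45 (SE 0.37, adjusted p = 0.323, edgeR) by label and 1.36 (SE 0.31, adjusted p = 0.0414) by deposited name. By label it was called with DESeq2 (adjusted p = 0.0318) and without TRULI_d5 replicate 3 (adjusted p = 0.0265). By deposited name the call was lost with all 10 libraries in a single fit (adjusted p = 0.111) and in each of the 6 fits that left out a library, with adjusted p between 0.0604 and 0.167. After withdrawal the values were 0.31 (SE 0.50, adjusted p = 0.743) by label and 0.20 (SE 0.55, adjusted p = 1) by deposited name.

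**Figure D5:**
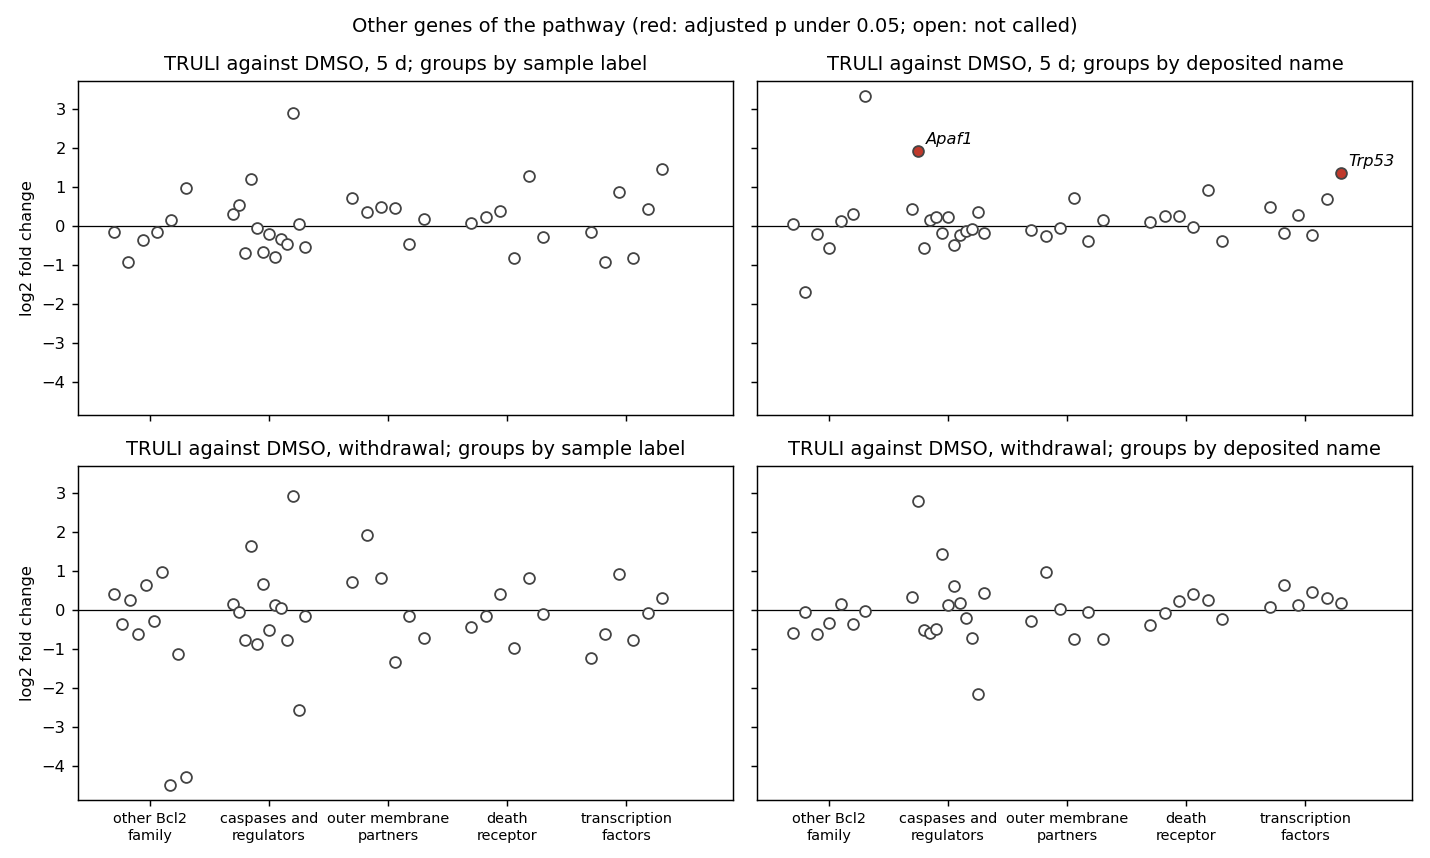
Log2 fold change of the tested genes of 5 pathway lists (x axis) in TRULI over DMSO, at 5 d (top) and after withdrawal (bottom), with groups by sample label (left) and by deposited name (right). The 2 filled red points, Apaf1 at 1.91 and Trp53 at 1.36, are the calls, both at 5 d by deposited name.

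The members with the widest range over the 10 libraries were Bid, Bmf and Bad, with 4.08, 3.79 and 3.60 on the log2 CPM scale. Of 12912 genes, those whose log2 CPM was most like Bid over the 10 libraries were Csf2ra, Nemp1 and Tchp, with Pearson r of 0.926, 0.918 and 0.915. For Bmf they were Parp14, Gnptab and Elovl5, with r of 0.941, 0.919 and 0.894, and for Bad Actr1b, Abhd14b and Acad9, with r of 0.966, 0.963 and 0.96. These are the highest of many correlations over points that share libraries and depth, in genes with few counts, and are given as a description.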

How the data were processed

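By the labels, poly(A) RNA of sorted cells was sequenced, whereas the paper's methods describe total RNA and mention no poly(A) selection. Reads were aligned by the authors with STAR to GRCm38. Deposited for each library are the expected counts of 48709 genes, left unnormalized, with an effective length per gene. The counting program is not given in the sources used here. The labels name an Illumina TruSeq kit and the methods a QIAseq kit.

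Rounded expected counts were fitted in R 4.3.3 with edgeR 4.0.16 (glmQLFit and glmQLFTest). Genes were kept by filterByExpr, TMM factors scaled the libraries, and p-values were adjusted by Benjamini-Hochberg over every gene tested. Calls have an adjusted p under 0.05. Standard errors are the fold change divided by the square root of the F statistic. Each fit held only the groups compared. Alternatives were DESeq2 1.42.0 or its size factors, no filter, all libraries in a single fit, the replicate block, mitochondrial genes left out, protein-coding genes only, a log2 fold beyond 1, and each library left out. Leaving out the libraries whose label and name differ was chosen after seeing the data. No libraries were alike within sampling noise (chi-square per degree of freedom at least 15.3 in any pair). FPKM was computed without TMM, with the effective length that the authors deposited for each gene in each library, so it moves with that length as well as with counts. Symbols came from GENCODE M21 and promoters from RefSeq (GRCm38.p6). The fits were tested on simulated counts that varied less than the groups by label and held no mt-Rnr2 split. That test checks the code and not the power of the fits on these libraries. Same-numbered libraries were checked for shared deviations, and by deposited name at 5 d all 3 pairs correlated above 0.1 (0.381, 0.192 and 0.315). The labels and the paper state no pairing of the libraries, and this check does not establish one.

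All 10 members were named, of the pathway lists the genes past the threshold in either treatment comparison, and the 3 genes most like each of the 3 most variable members. Members and lists were chosen with earlier results of these data known, and Foxo1, Foxo3 and the members' promoters after values were seen.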

Additional observations from a re-analysis of the deposited data

How the results depend on the processing

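Of 496 values of members recomputed under an alternative, 442 kept their direction and their side of the threshold, 16 passed it, 18 ceased to pass it and 20 changed sign. Where a value moved, the cause was not tested unless fewer libraries were fitted. At 5 d by label 1 gene was called, against 255 with DESeq2, 646 without the filter, 2 with all 10 libraries in a single fit, 0 with the replicate block, 134 without the libraries whose label and name differ, and 0 to 2193 when a library was left out, the last without TRULI_d5 replicate 3. Members called were 0, against 1 by deposited name and 0 to 2 when a library was left out. At 5 d by deposited name 378 genes were called, against 709 with DESeq2, 1077 without the filter, 109 with all 10 libraries, 1140 with the replicate block and 54 to 391 when a library was left out, 54 without DMSO_d5 replicate 2. Members called there were 1, against 3 with DESeq2, 3 without the filter, 3 with the replicate block, 0 with all 10 libraries and 0 to 1 when a library was left out. After withdrawal by label 253 genes were called, against 1468 with DESeq2, 1751 without the filter, 0 with all 10 libraries, 1272 with the replicate block, 0 by deposited name and 8 to 3154 when a library was left out (8 without DMSO_d10 replicate 1, 18 without DMSO_d10 replicate 2, 2389 without TRULI_d10 replicate 2 and 3154 without TRULI_d10 replicate 1). A group left with a single library is then assumed to vary like the other. Members called were 0, against 1 with DESeq2, 1 without the filter, 1 with the replicate block (Bcl2l11, adjusted p = 0.0313) and 0 to 3 when a library was left out. After withdrawal by deposited name 0 genes were called, against 49 with DESeq2, 197 without the filter and 0 to 4 when a library was left out, and 0 members in each of these. In the day comparison by label 0 genes were called, against 6 with DESeq2, 120 without the filter, 307 without the libraries whose label and name differ, 4359 by deposited name and 0 to 2 when a library was left out. Members called there were 0, against 4 by deposited name and 1 without the libraries whose label and name differ. By deposited name 4 members were called, against 2 to 4 when a library was left out.

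Log2 fold changes that changed sign were those of Bak1 at 5 d (0.080 by deposited name), Bcl2l11 at 5 d (−0.73 by deposited name and −1.28 without the libraries whose label and name differ) and Apaf1 at 5 d by label (−0.063 with the replicate block). After withdrawal by deposited name they were Bcl2 at 0.53, Bcl2l1 at 0.20, Bak1 at 0.46 and Bcl2l11 at −0.12. When a library was left out, values at 5 d by label ran from −0.24 to 0.83 for Bcl2l1 and −0.86 to 0.99 for Apaf1, and by deposited name from −0.00197 to 0.30 for Mcl1 and −0.30 to 0.39 for Bak1. After withdrawal by label they ran from −0.00145 to 0.45 for Mcl1, −0.10 to 1.45 for Bax and −0.25 to 6.52 for Bmf, and by deposited name from −0.44 to 0.63 for Bcl2l1, −0.064 to 0.39 for Bax and −0.076 to 1.26 for Bak1.

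By label at 5 d same-numbered libraries correlated at −0.159, 0.0668 and −0.196. After withdrawal there were 2 pairs (0.203 by label and 0.181 by deposited name). With 2 libraries a group their deviations are equal and opposite, so every pair gives the same value up to its sign. The replicate block changed no other call of a member in the treatment comparisons. Depth limits Bbc3, Bad and Bmf most, with at most 13, 28 and 26 counts in any library. Leaving out the libraries whose label and name differ could not be done after withdrawal, since no control was left.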
